A study of Mus musculus with 12 samples.

Results

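Alcohol dehydrogenases (ADH) and aldehyde dehydrogenases (ALDH) were described in the liver of mouse pups with and without PPARα, the nuclear receptor that switches on fatty acid catabolism. The 10 genes were given by name, namely Adh1, Adh4, Adh5, Adh7, Aldh1a1, Aldh1a7, Aldh1b1, Aldh2, Aldh3a2 and Aldh9a1. All 10 were measured, each by 1 probe set (a group of array probes read as 1 value), among 19938 genes in all. Whole livers of suckling pups killed at postnatal day 2 (P2) were measured on 12 Affymetrix mouse gene arrays, 1 per pup. There were 6 Ppara-/- pups, which lack functional PPARα in every tissue, and 6 Ppara+/+ pups, with 3 males and 3 females of each genotype. Both genotypes came from matings of Ppara+/- mice, so all pups were nursed by heterozygous dams, and the labels name no treatment beside genotype. The labels give the strain as SV129, whereas the paper describes a C57BL/6 background. The RNA samples came from several litters per genotype, but the labels do not say which pup came from which litter, so p-values measure the spread between pups and take no account of litter.

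ADH enzymes oxidise alcohols to aldehydes, and ALDH enzymes oxidise aldehydes to carboxylic acids, in most cases with NAD+ as the acceptor. In the liver the first step turns ethanol into acetaldehyde, and the second turns acetaldehyde into acetate. The same families act on retinol and retinaldehyde, on formaldehyde bound to glutathione, on long-chain fatty alcohols and fatty aldehydes, and on an intermediate of carnitine synthesis. PPARα binds DNA together with the retinoid X receptor, at a direct repeat of the hexamer AGGTCA with 1 base between the copies.

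Signals are given on the log2 scale, as summarised by RMA (robust multi-array averaging), so that a difference of 1 is a 2-fold change of the signal. A signal cannot be set against that of another gene's probe set, and differences between genotypes are therefore compared, not levels. Genotypes were compared by limma with sex as a term, and a gene was called at a Benjamini-Hochberg adjusted p under 0.05 over all probe sets. The correlations between arrays ran from 0.989 to 0.996, and the number of arrays, 12, limits the precision. Ppara itself had a lowest, median and highest signal of 10.21, 10.27 and 10.33 in Ppara-/- livers, and of 10.98, 11.21 and 11.27 in Ppara+/+ livers, so the genotypes did not overlap at the disrupted gene. The sources used here do not say if that probe set covers the deleted sequence.

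Adh4 and Aldh3a2 fell in Ppara-/- livers, and the other 8 dehydrogenases did not pass the test. Adh4 was 2.32-fold lower and Aldh3a2 1.24-fold lower. Thus 2 of 10 genes were called lower and 0 of 10 higher by limma, where 1.12% of all genes were called lower, 1.99% higher and 3.11% in either direction. At an unadjusted p under 0.05, 3 of the 10 were lower and 1 higher, against 7.89% and 9.27% of all genes. The 10 log2 fold changes (Ppara-/- minus Ppara+/+) were split evenly around 0, with 5 below and 5 above and a median of -0.03, beside a median of -0.01 over all genes.

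**Figure D1:**
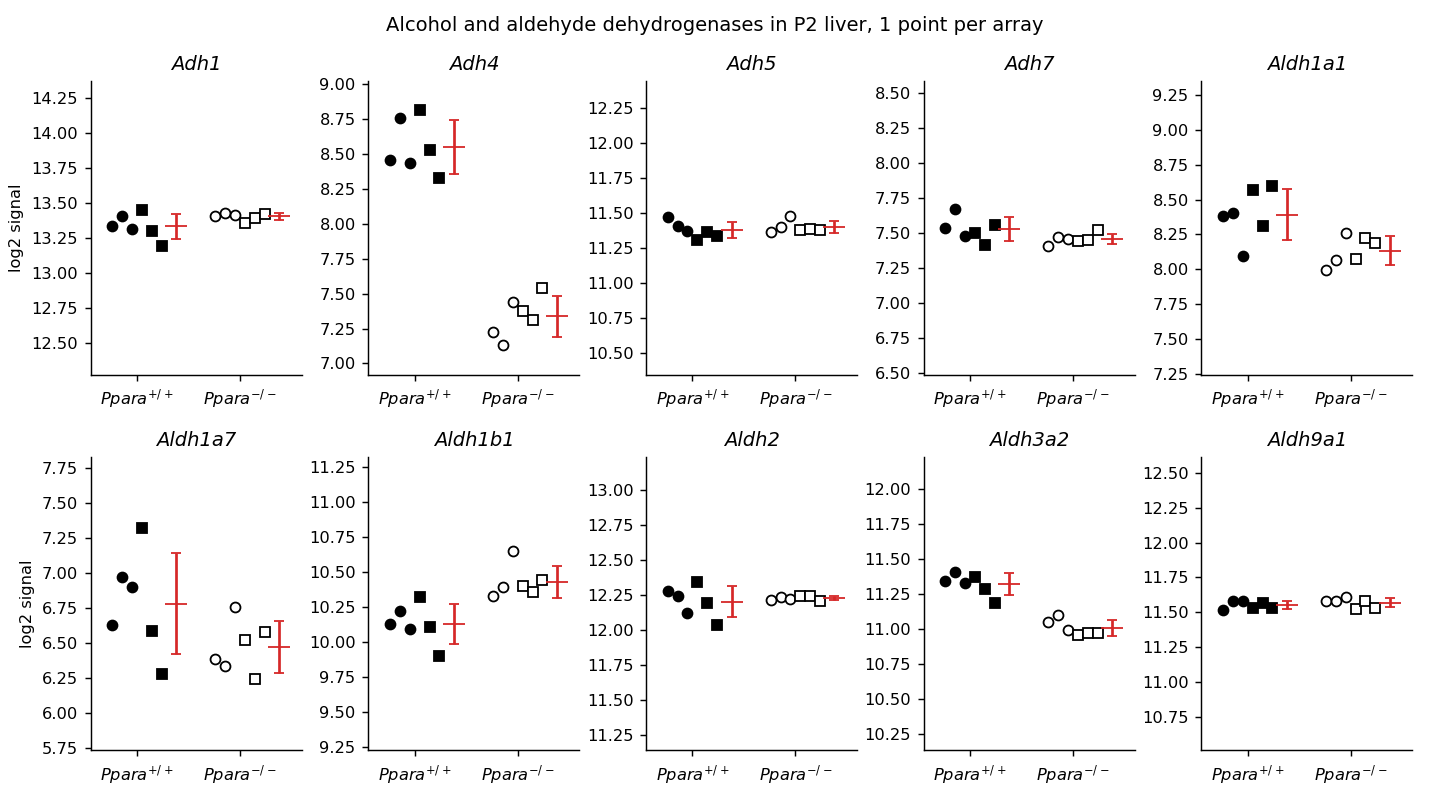
Log2 signal of the 10 dehydrogenase genes in each of 12 livers (filled, Ppara+/+; open, Ppara-/-; circles, males; squares, females), with the mean and SD in red. Every panel spans the same range of log2 units, and the genotypes stand wholly apart in Adh4, Aldh3a2 and, by a narrow gap, Aldh1b1.

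Among the alcohol dehydrogenases, Adh4, the class II enzyme of the liver, acts on ethanol, on longer aliphatic alcohols and on retinol. Its lowest, median and highest log2 signals were 7.13, 7.34 and 7.54 in Ppara-/- livers, and 8.32, 8.49 and 8.81 in Ppara+/+ livers. The highest Ppara-/- liver thus lay below the lowest Ppara+/+ liver. The means were 7.34 ± 0.15 and 8.55 ± 0.19 (SD, n = 6 per genotype), and the log2 fold change was -1.21, with SE 0.0942 and a 95% interval from -1.42 to -1.01 (adjusted p = 2.68e-05, limma). On the linear scale the fall was 2.32-fold, with an interval from 2.01 to 2.68. The difference was -1.28 in males (adjusted p = 0.00153, limma) and -1.15 in females (adjusted p = 0.00355, limma), and a genotype by sex interaction was not detected (unadjusted p = 0.494, limma). The study drew Adh4 in a panel of genes chosen on these samples, so its fall is not independent evidence. It names Adh4 among the detoxifying enzymes whose genes PPARα stimulated after birth alone. The fetal side of that statement rests on arrays not analysed here.

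The stretch of 250 bases before the start of Adh4 is shown because Adh4 had the largest change of the 10 genes and its sequence comes closest to the PPARα motif among their promoters. Promoters were taken from RefSeq (GRCm38.p6), which gave 11 for 9 of the 10 genes. The motif AGGTCANAGGTCA was searched on both strands (TGACCTNTGACCT on the other), counting how many of its 12 fixed letters differ in the best window. Capitals mark that window, where at most 1 letter differed, and any other copy of the hexamer AGGTCA. The Adh4 promoter lies at chr3:138415247-138415496 on the plus strand and is printed 5′ to 3′. The promoter of Aldh3a2, the other gene that fell, lies at chr11:61267187-61267436 on the minus strand, and holds nothing in capitals.
Adh4: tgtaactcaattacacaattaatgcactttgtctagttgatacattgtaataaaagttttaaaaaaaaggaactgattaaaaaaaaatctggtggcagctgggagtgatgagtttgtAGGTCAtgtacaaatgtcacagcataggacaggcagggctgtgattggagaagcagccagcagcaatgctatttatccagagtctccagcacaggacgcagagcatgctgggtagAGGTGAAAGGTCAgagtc
Aldh3a2: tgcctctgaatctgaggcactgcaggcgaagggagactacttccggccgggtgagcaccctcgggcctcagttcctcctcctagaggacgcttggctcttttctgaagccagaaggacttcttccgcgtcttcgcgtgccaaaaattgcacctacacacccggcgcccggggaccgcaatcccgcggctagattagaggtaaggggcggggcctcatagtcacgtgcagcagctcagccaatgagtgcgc

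The best window of Adh4, AGGTgAAAGGTCA with the differing letter in lower case, lies 18 to 6 bases before the start. It was the only window with at most 1 difference among the 11 promoters, and such a window occurs in 159 of 32851 mouse promoters of the same length (0.484%). That share is per promoter, whereas Adh4 was picked as the closest of 11, so the share overstates how rare such a find is. Counting the hexamer within that window, the Adh4 promoter holds 2 hexamers, which 1.34% of all promoters reach. Aldh9a1, whose signal did not pass the test, came next with 2 differences (AGGcCAAAGGTCt), a closeness that 3.24% of promoters reach. Aldh3a2 and 1 of the 2 promoters of Aldh1a1 had 3 differences, which 21.3% of promoters reach, and the others had 4 or 5. The promoters of the 2 genes that fell also differ in base composition, with a GC content of 41.6% in Adh4 and 61.2% in Aldh3a2, around a median of 52.4% over all promoters. These matches describe letters in a window, and no binding was measured on the arrays.

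Adh1, the class I enzyme and the main ethanol dehydrogenase of the liver, had a lowest, median and highest log2 signal of 13.36, 13.41 and 13.43 in Ppara-/- livers, and of 13.19, 13.32 and 13.45 in Ppara+/+ livers. The Ppara-/- values lay inside the wider Ppara+/+ range. Its log2 fold change was 0.07, with a 95% interval from -0.03 to 0.17 (adjusted p = 0.502, limma).

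Adh5, the class III enzyme that oxidises the glutathione adduct of formaldehyde and reduces S-nitrosoglutathione, ran from 11.36 over a median of 11.38 to 11.48 in Ppara-/- livers and from 11.31 over 11.37 to 11.47 in Ppara+/+ livers. The ranges were nearly the same. Its log2 fold change was 0.02, with an interval from -0.06 to 0.10 (adjusted p = 0.834, limma), and it was -0.00194 in males alone.

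Adh7, the class IV enzyme, is known as a retinol and ethanol dehydrogenase of the stomach and the upper digestive tract. It ran from 7.41 over a median of 7.45 to 7.52 in Ppara-/- livers and from 7.42 over 7.52 to 7.67 in Ppara+/+ livers, so the genotypes overlapped. Its log2 fold change was -0.07, with an interval from -0.17 to 0.03 (adjusted p = 0.52, limma). Of 9 markers of upper digestive epithelium, 8 were measured and 0 passed the test (0 at an unadjusted p under 0.05, limma), with summed signals from 9.09 to 10.48 in Ppara-/- and from 9.12 to 10.53 in Ppara+/+ livers on the log2 scale.

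The alcohol dehydrogenase genes lie side by side on mouse chromosome 3, which places Adh4 between the pseudogene Adh6-ps1 and Adh5 in the RefSeq order. Along this order the log2 fold changes were 0.06 for Trmt10a, -0.01 for 4930579F01Rik, -0.07 for Adh7, 0.07 for Adh1, 0.14 for Adh6a, 0.24 for Adh6b, -0.02 for Adh6-ps1, -1.21 for Adh4, 0.02 for Adh5 and 0.04 for Metap1. Adh4 was the only 1 of these 10 neighbours past the test. The mean signals of 4930579F01Rik (5.15), Adh6a (5.18) and Adh6-ps1 (4.67) over the 12 livers lay below the lowest array median of 7.16. A fall could hardly be read at such signals, so the small changes of these genes say little. The log2 ratio of Adh4 to each of the other 5 genes of the family was also compared between genotypes. This used an exact two-sided permutation test over the 12 livers. The genotype difference of Adh4 minus that of the other gene was -1.15 for Adh7, -1.28 for Adh1, -1.35 for Adh6a, -1.45 for Adh6b and -1.24 for Adh5, in log2 units. Each of these gave p = 0.00216 by the exact permutation test, the smallest that 924 arrangements allow, and an adjusted p of 0.0026 over 6 such comparisons. Adh4 alone already separated the genotypes and the other 5 genes moved little, so these p-values were bound to be small. They restate the call on Adh4 and are no further support for it.

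**Figure D2:**
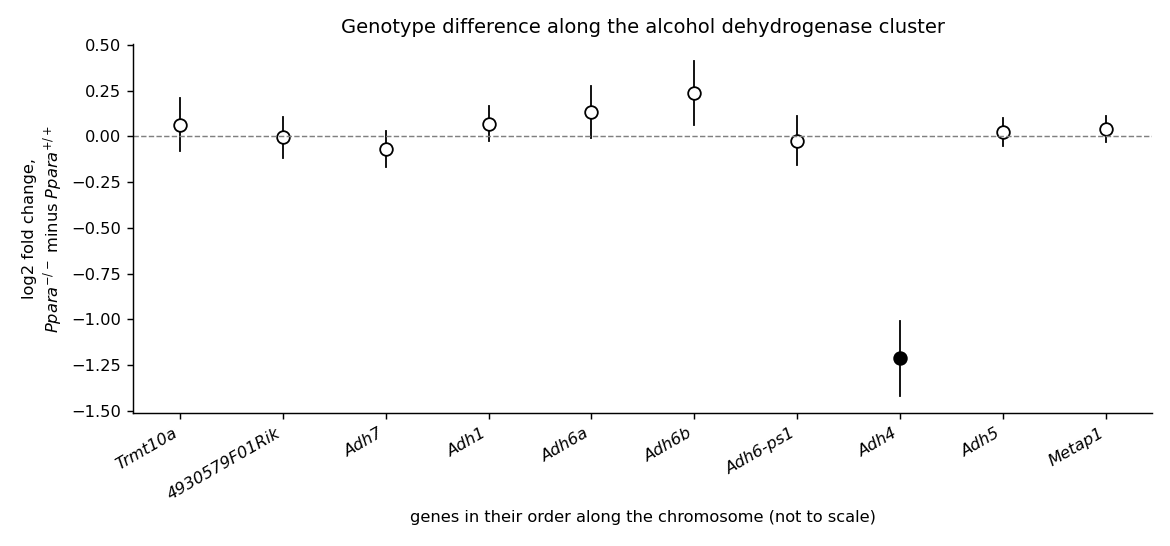
Log2 fold change (Ppara-/- minus Ppara+/+, 6 livers each) with its 95% interval for 10 genes in their order along chromosome 3, not to scale (filled: adjusted p under 0.05). Adh4 stands at -1.21, while the genes on both sides of it lie between -0.07 and 0.24. The signals of 4930579F01Rik, Adh6a and Adh6-ps1 lay below the array medians.

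Aldh2 and Aldh1b1 are both mitochondrial and both oxidise acetaldehyde, the product of the ADH step. Aldh2, the main acetaldehyde dehydrogenase of the liver, ran from 12.21 over a median of 12.22 to 12.24 in Ppara-/- livers and from 12.03 over 12.22 to 12.34 in Ppara+/+ livers. The medians of the genotypes were alike. Its log2 fold change was 0.03, with an interval from -0.09 to 0.14 (adjusted p = 0.869, limma), and it turned to -0.00894 after quantile normalization and to -0.01 without Ppara+/+ replicate 9.

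Aldh1b1 had a lowest, median and highest log2 signal of 10.33, 10.40 and 10.65 in Ppara-/- livers, and of 9.90, 10.12 and 10.32 in Ppara+/+ livers. The genotypes did not overlap, a pattern with Ppara-/- livers on top that 2.88% of all genes show, but the lowest Ppara-/- liver and the highest Ppara+/+ liver were close together. The means were 10.43 ± 0.12 and 10.13 ± 0.14 (SD, n = 6 each), and the log2 fold change of 0.30 (SE 0.0731, interval 0.14 to 0.46) did not pass the test (adjusted p = 0.0606, limma). It passed without Ppara+/+ replicate 7, where it was 0.35 (adjusted p = 0.0161, limma), and under 6 other settings. Ppara-/- replicate 6 had the highest Aldh1b1 signal of the 12 livers, and the log2 fold change was 0.26 without it (adjusted p = 0.101, limma).

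Within each sex, the log2 fold change of Aldh1b1 was 0.31 in males and 0.29 in females, and neither passed alone (adjusted p = 0.398 and 0.44, limma).

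Aldh1a1 and Aldh1a7 lie next to each other on chromosome 19. Aldh1a1 is a cytosolic enzyme that oxidises retinaldehyde to retinoic acid, and Aldh1a7 is a close copy of it found in rodents. To show how close the copies are, the last 100 bases before the start of Aldh1a7 (chr19:20727557-20727656, minus strand) are set beside those before 1 of the 2 starts of Aldh1a1 (chr19:20601868-20601967, plus strand; RefSeq, GRCm38.p6). Capitals mark the bases at which the copies differ.
Aldh1a1: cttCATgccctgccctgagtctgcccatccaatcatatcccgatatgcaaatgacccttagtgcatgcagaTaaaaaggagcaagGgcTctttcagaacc
Aldh1a7: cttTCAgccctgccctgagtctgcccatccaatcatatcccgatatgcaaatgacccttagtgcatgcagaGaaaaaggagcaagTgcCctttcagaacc
Of these 100 bases 94 were identical, with an unbroken run of 65. Before the other start of Aldh1a1, 30 of 100 bases were identical to those of Aldh1a7 at the same distance. The sequences of the array probes were not used here, so how far each probe set also reads the other copy is not known.

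Aldh1a1 had a lowest, median and highest log2 signal of 8.00, 8.13 and 8.26 in Ppara-/- livers, and of 8.09, 8.39 and 8.60 in Ppara+/+ livers. The genotypes overlapped, in that the lowest Ppara+/+ liver, replicate 3, lay within the Ppara-/- range. The log2 fold change was -0.26 with SE 0.0764 and an interval from -0.42 to -0.09, which did not pass the test (unadjusted p = 0.00599, adjusted p = 0.128, limma). Without Ppara+/+ replicate 3 it was -0.31 (adjusted p = 0.0515, limma).

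Aldh1a7 ran from 6.24 over a median of 6.45 to 6.75 in Ppara-/- livers and from 6.28 over 6.76 to 7.32 in Ppara+/+ livers, so that the genotypes overlapped, although 3 of 6 Ppara+/+ livers (6.90, 6.97 and 7.32) lay above every Ppara-/- liver. Its log2 fold change was -0.31 with SE 0.156 and an interval from -0.65 to 0.03 (adjusted p = 0.385, limma), and it was -0.18 without Ppara+/+ replicate 7, the highest of the 12 livers. Aldh1a7 had the widest spread of the 10 genes in both genotypes, with an SD of 0.36 in Ppara+/+ and 0.19 in Ppara-/- livers. It was also the only 1 of the 10 whose mean in either genotype lay below the highest array median of 7.20, where signals are less certain. In Ppara-/- livers Adh4, with a mean of 7.34 and a lowest signal of 7.13, lay close to that level. The size of its fall is thus less certain too. Adh7 lay close to that level in both genotypes, with means of 7.46 in Ppara-/- and 7.53 in Ppara+/+ livers. A fall of Adh7 could therefore be hard to read. The neighbour beyond Aldh1a1, Anxa1, had a log2 fold change of 0.07 (adjusted p = 0.58, limma).

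Aldh3a2 encodes the fatty aldehyde dehydrogenase of the endoplasmic reticulum and peroxisomes, which oxidises long-chain aldehydes from fatty alcohols, branched-chain lipids and sphingolipids. Its loss causes Sjögren-Larsson syndrome in humans. The lowest, median and highest log2 signals were 10.96, 10.98 and 11.10 in Ppara-/- livers, and 11.18, 11.33 and 11.40 in Ppara+/+ livers. As for Adh4, every Ppara-/- liver was below the lowest Ppara+/+ liver, a pattern that 1.43% of all genes show.

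The means of Aldh3a2 were 11.004 ± 0.055 and 11.32 ± 0.08 (SD, n = 6 per genotype), and the log2 fold change was -0.31, with SE 0.0394 and an interval from -0.40 to -0.23 (adjusted p = 0.00114, limma). On the linear scale it was 1.24-fold lower, with an interval from 1.17 to 1.32. The difference was -0.31 in males (adjusted p = 0.0478, limma) and -0.32 in females (adjusted p = 0.0482, limma), and an interaction was not detected (unadjusted p = 0.965, limma). Its neighbour Aldh3a1, an aldehyde dehydrogenase best known from the cornea and stomach, had a log2 fold change of -0.02 (adjusted p = 0.936, limma). The mean signals of Aldh3a1, 5.64 in Ppara-/- and 5.66 in Ppara+/+ livers, lay below the array medians, where a fall could hardly be read. The genotype difference of Aldh3a2 minus that of Aldh3a1 was -0.30 (exact permutation p = 0.0238, adjusted p = 0.0238 over the same 6 comparisons). This difference mainly restates the change of Aldh3a2.

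Aldh9a1 oxidises trimethylaminobutyraldehyde on the route to carnitine, the carrier of long-chain fatty acids into mitochondria. It ran from 11.53 over a median of 11.58 to 11.61 in Ppara-/- livers and from 11.52 over 11.55 to 11.58 in Ppara+/+ livers, the narrowest spread of the 10 genes in Ppara+/+ livers. Its log2 fold change was 0.02, with an interval from -0.05 to 0.08 (adjusted p = 0.85, limma). Bbox1, which encodes the last enzyme of carnitine synthesis, had a log2 fold change of 0.03 (adjusted p = 0.897, limma).

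The 10 genes also varied within a genotype. The SD was larger in Ppara+/+ than in Ppara-/- livers for 9 of 10 genes, Aldh9a1 being the exception, whereas this held for 52% of all genes. The ratio of the SDs reached 8.82 for Aldh2 and 3.53 for Adh1. Among the Ppara+/+ livers, replicate 7 was the highest for 5 of the 10 genes and replicate 9 the lowest for 6. Among the Ppara-/- livers, replicate 6 was the highest for 5. The genes were read on the same arrays, so these counts are not independent, and no test was made of them.

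Sex did not separate any of the 10 genes at the threshold. A difference between females and males was called for 0 of 10 genes, against 0.0401% of all genes (0 of 10 against 2.78% at an unadjusted p under 0.05, limma). An interaction of genotype and sex was called for 0 of 10, against 0% of all genes (0 of 10 against 1.79% at an unadjusted p under 0.05, limma). The smallest unadjusted p for sex was 0.073, in Aldh3a2, with a difference of -0.08 log2 units (females minus males).

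**Figure D3:**
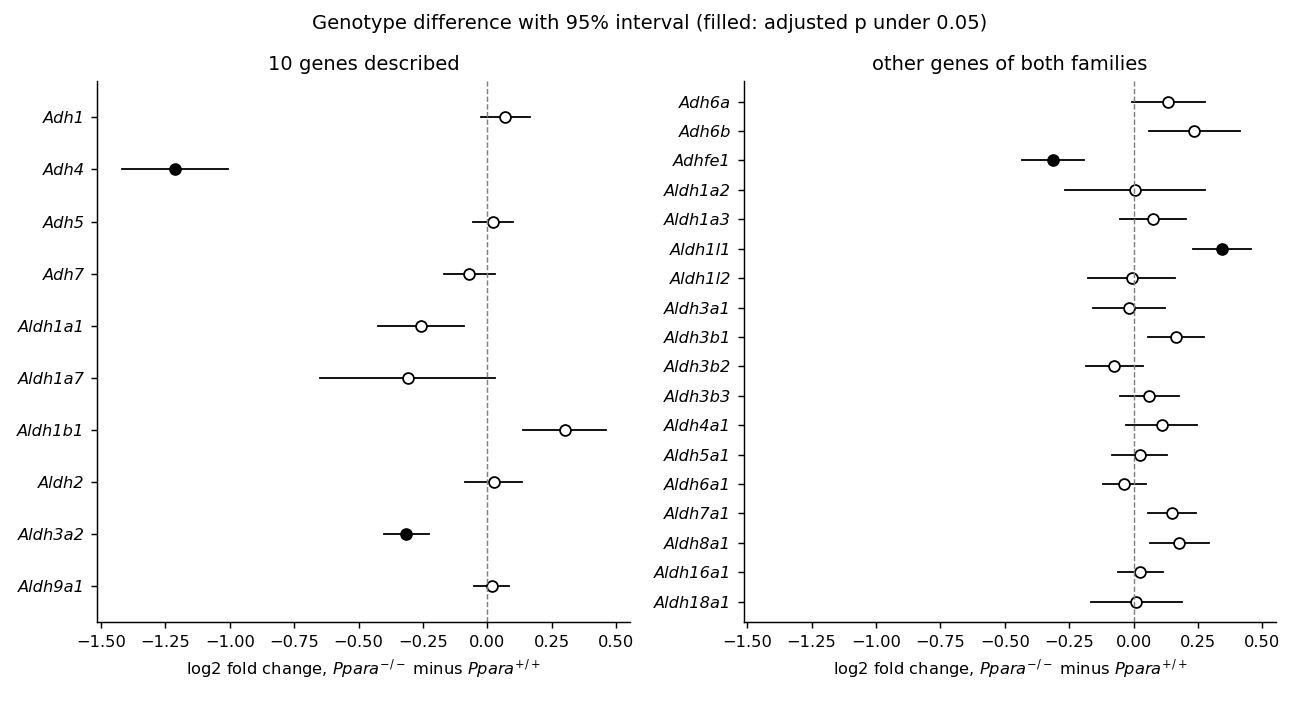
Log2 fold change (Ppara-/- minus Ppara+/+, 6 livers each) with its 95% interval for the 10 genes and for 18 other genes of both families (filled: adjusted p under 0.05). Adh4 at -1.21 and Aldh3a2 at -0.31 are filled on the left, and Adhfe1 at -0.31 and Aldh1l1 at 0.35 on the right.

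The remaining genes of both families were measured to see how far the 10 stand for them. Of 18 such genes 1 fell and 1 rose, against 1.12% and 1.99% of all genes. Of their log2 fold changes 13 of 18 (72.2%) were above 0, against 45.1% over all genes, and the median was 0.04. Adhfe1, a mitochondrial transhydrogenase of hydroxy acids related to iron-containing alcohol dehydrogenases, had signals from 10.36 over a median of 10.44 to 10.46 in Ppara-/- livers and from 10.57 over 10.77 to 10.89 in Ppara+/+ livers. It fell without overlap, with a log2 fold change of -0.31 (SE 0.0552, adjusted p = 0.0107, limma), but did not pass without Ppara-/- replicates 6 and 10 (-0.33, adjusted p = 0.0516, limma).

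Aldh1l1, which oxidises formyl-tetrahydrofolate in the cytosol and is abundant in liver, ran from 11.95 over a median of 12.02 to 12.05 in Ppara-/- livers and from 11.48 over 11.68 to 11.80 in Ppara+/+ livers. It rose without overlap, by 0.35 in log2 units (SE 0.0514, limma adjusted p = 0.00372). A further 4 of these 18 genes were higher at an unadjusted p under 0.05, as were 9.27% of all genes, and did not pass after adjustment. They were Aldh7a1 and Aldh8a1, enzymes of lysine and tryptophan breakdown (log2 fold change 0.15 and 0.18), Aldh3b1 (0.17) and Adh6b (0.24).

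Enzymes that supply or take over the substrates of the 10 genes were read from 5 lists, in which 48 of 52 genes were measured. Of these 7 fell and 4 rose, against 1.12% and 1.99% of all genes, and their median log2 fold change was -0.01, equal to that of all genes. Without Ppara+/+ replicate 7 the count of rises was 9, and without Ppara-/- replicates 6 and 10 the count of falls was 5. Most falls lay in the list of fatty alcohol and aldehyde sources, and the lists on other aldehyde enzymes and carnitine synthesis held 0 calls (limma). At an unadjusted p under 0.05 (limma), the former held 1 lower and 3 higher genes and the latter 0. The shares over all genes were 7.89% lower and 9.27% higher.

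For ethanol and acetate, 1 of 5 genes fell and 0 rose, against 1.12% and 1.99% of all genes. Acss3, a mitochondrial synthetase that activates short-chain acids to their CoA esters, had signals from 6.37 over a median of 6.58 to 6.86 in Ppara-/- livers and from 7.58 over 7.78 to 8.24 in Ppara+/+ livers. It fell by 1.25 in log2 units (SE 0.119, limma adjusted p = 0.000163), close in size to Adh4 and likewise without overlap, though its Ppara-/- signals lay below the array medians. The acetate-activating enzymes Acss1 and Acss2 did not pass, with log2 fold changes of -0.02 and 0.01 (adjusted p = 0.94 and 0.959, limma). The enzymes that oxidise ethanol beside ADH had small differences that did not pass, with a log2 fold change of -0.05 for catalase (Cat) and 0.02 for Cyp2e1.

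For retinoids, where Adh1, Adh4, Adh7 and Aldh1a1 act, 24 of 25 partner genes were measured. Of these 1 fell and 3 rose, against 1.12% and 1.99% of all genes. Dhrs4, a peroxisomal reductase of retinaldehyde and other carbonyls, had signals from 10.39 over a median of 10.51 to 10.55 in Ppara-/- livers and from 10.96 over 10.9999 to 11.05 in Ppara+/+ livers. It fell by 0.51 on the log2 scale (adjusted p = 1.97e-05, limma). Dhrs9, a short-chain dehydrogenase of retinol and steroids, ran from 7.46 over 7.66 to 7.88 in Ppara-/- livers and from 7.01 over 7.16 to 7.23 in Ppara+/+ livers.

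Dhrs9 rose by 0.53 on the log2 scale (adjusted p = 0.00114, limma). Bco1, which cleaves beta-carotene into retinaldehyde, rose by 0.27 on the log2 scale (adjusted p = 0.00525, limma). Rdh5, a retinol dehydrogenase best known from the eye, rose by 0.35 on the log2 scale (adjusted p = 0.0268, limma). The call on Rdh5 was lost when any 1 of Ppara-/- replicates 4, 6, 10, 11 and 12 or Ppara+/+ replicates 1, 3 and 8 was left out (adjusted p from 0.0528 to 0.0686, limma).

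For fatty alcohols and fatty aldehydes, the substrates of Aldh3a2 and of Adh4, 5 of 10 partner genes fell and 1 rose. Over all genes 1.12% fell and 1.99% rose, but this list was chosen with earlier results of these data known. Cyp4a14 and Cyp4a10, which hydroxylate the far end of fatty acids and so make a fatty alcohol group, had the largest falls. Cyp4a14 ran from 10.27 over a median of 10.44 to 10.54 in Ppara-/- livers and from 12.96 over 13.06 to 13.13 in Ppara+/+ livers, and Cyp4a10 from 8.54 over 8.78 to 9.07 and from 11.04 over 11.11 to 11.26. Their log2 fold changes were -2.65 (adjusted p = 1.85e-10, limma) and -2.35 (adjusted p = 2.78e-08, limma). Both are textbook targets of PPARα.

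Cyp4a12a fell, with a log2 fold change of -1.20 (adjusted p = 0.0117, limma) but did not pass without Ppara-/- replicates 6 and 10 (-1.02, adjusted p = 0.0516, limma). Cyp4f15, named because only 5 of these genes fell, fell by 0.23 on the log2 scale (adjusted p = 0.0301, limma). Its call was lost without any 1 of Ppara-/- replicates 4, 5, 6, 11 and 12 or Ppara+/+ replicates 1, 2, 3 and 8 (adjusted p from 0.0536 to 0.0775, limma), and also without Ppara-/- replicates 6 and 10 together (adjusted p = 0.0811, limma). In peroxisomal alpha-oxidation of branched fatty acids, Phyh acts first and Hacl1 then releases the fatty aldehyde. Hacl1 ran from 11.50 over a median of 11.66 to 11.71 in Ppara-/- livers and from 12.06 over 12.20 to 12.27 in Ppara+/+ livers. It fell by 0.54 on the log2 scale (adjusted p = 0.000109, limma), while Phyh rose by 0.25 on the log2 scale (adjusted p = 0.000985, limma), so these consecutive enzymes moved in opposite directions.

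**Figure D4:**
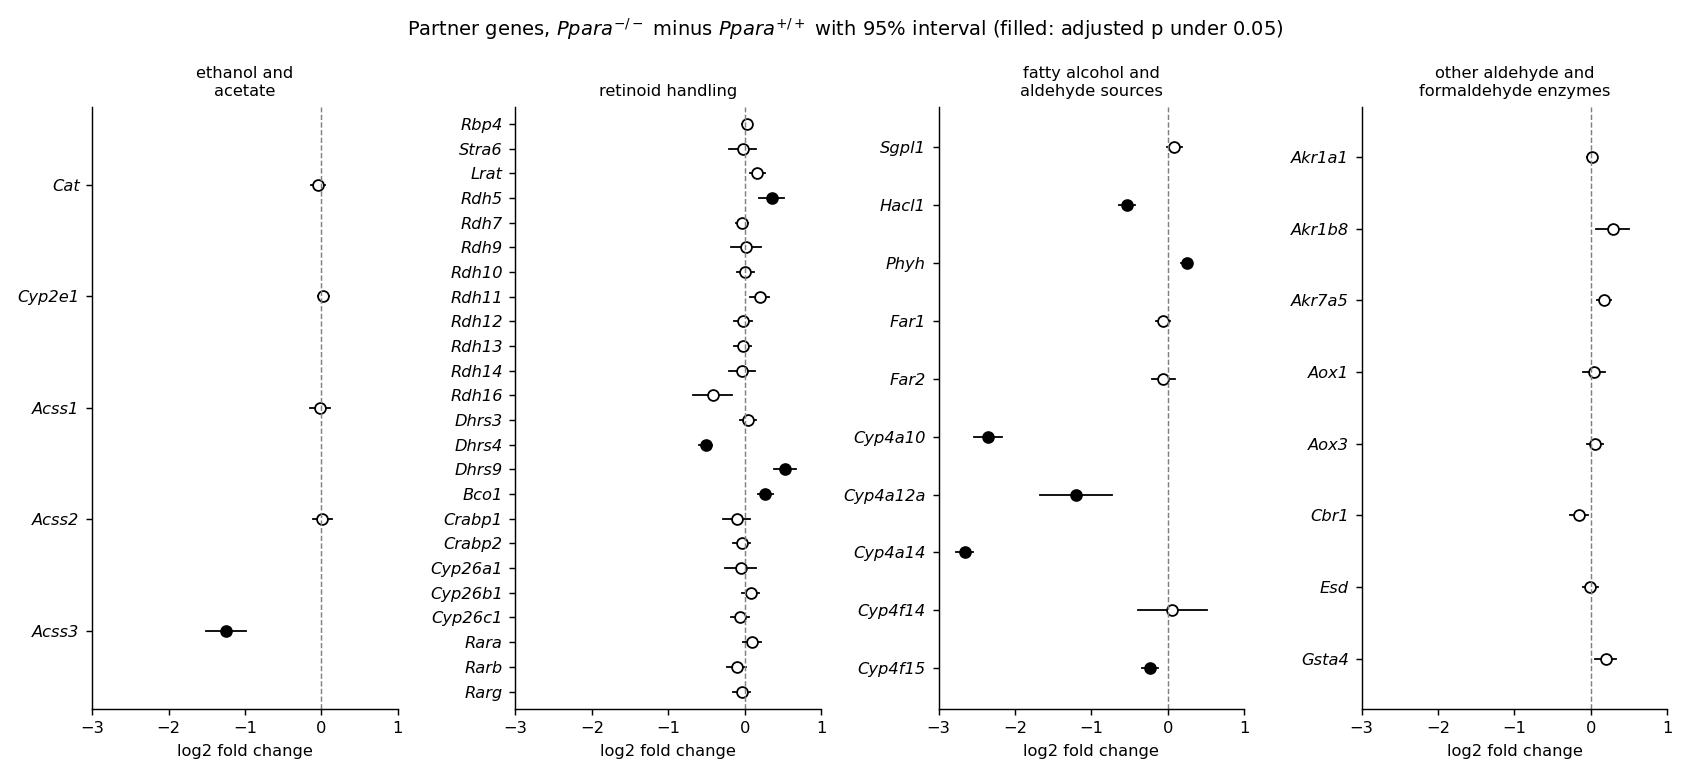
Log2 fold change (Ppara-/- minus Ppara+/+, 6 livers each) with its 95% interval for the partner genes of 4 lists (filled: adjusted p under 0.05). The longest shifts are those of Cyp4a14 at -2.65 and Cyp4a10 at -2.35, and the list of other aldehyde enzymes has no filled point.

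Whole liver holds several cell types, so fewer cells of a type and less RNA per cell cannot be told apart. Summed signals of 9 hepatocyte markers, which include albumin, ran from 17.00 to 17.03 in Ppara-/- and from 16.99 to 17.03 in Ppara+/+ livers on the log2 scale, and their median log2 fold change was 0.01, with 0 called (0 at an unadjusted p under 0.05, limma). The brightest markers weigh most in such a sum. Albumin (Alb), with a mean of 14.24 in both genotypes, lay near the highest signal on any array, 14.60. A difference in hepatocyte share may hardly show at such signals, which was not tested. Of 10 Kupffer cell markers 0 passed (9 were higher at an unadjusted p under 0.05, limma) and all 10 lay above 0, with a median of 0.21 and sums from 13.86 to 14.02 against 13.58 to 13.99. Of 6 erythroid markers 0 passed (5 were lower at an unadjusted p under 0.05, limma) and all 6 lay below 0, with a median of -0.17 and sums from 14.25 to 14.60 against 14.37 to 14.71. Endothelial and stellate cell markers had medians of 0.12 over 9 genes and 0.10 over 10 genes, and bile duct markers 0.06 over 4 genes. Of these 0 passed (5, 4 and 0 were higher at an unadjusted p under 0.05, limma). Over all genes, 9.27% were higher and 7.89% lower at that unadjusted p, and 45.1% lay above 0. The Kupffer, endothelial and stellate counts of higher markers, and the erythroid count of lower markers, exceeded these shares. No test was made of these counts.

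The marker sums of the genotypes overlapped in Kupffer, erythroid and endothelial cells through Ppara+/+ replicate 7, whose sums of 13.99, 14.37 and 13.55 lay within the Ppara-/- ranges. Without it, the Ppara+/+ sums ran from 13.58 to 13.79 for Kupffer cells, from 14.61 to 14.71 for erythroid cells and from 13.37 to 13.49 for endothelial cells, beside 13.86 to 14.02, 14.25 to 14.60 and 13.52 to 13.62 in Ppara-/- livers. Replicate 7 was left out here because its sums lay in those ranges, so the separation without it follows from that choice. Its omission also brought Aldh1b1 past the test and raised the count of rising partner genes. Without it Adh4 was at -1.16 (adjusted p = 8.66e-05, limma) and Aldh3a2 at -0.29 (adjusted p = 0.00205, limma).

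Of 8 pancreas acinar markers 0 passed (0 at an unadjusted p under 0.05, limma), but their summed signal was highest in Ppara-/- replicates 6 (12.63) and 10 (11.99), and ran from 9.64 to 11.37 in the other livers. Without these 2 livers Adh4 was at -1.25 (adjusted p = 0.000581, limma) and Aldh3a2 at -0.30 (adjusted p = 0.0148, limma), so both still passed, while Aldh1b1 was at 0.25 (adjusted p = 0.169, limma). The part of the Kupffer cell, endothelial and erythroid shifts in these differences was not tested.

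**Figure D5:**
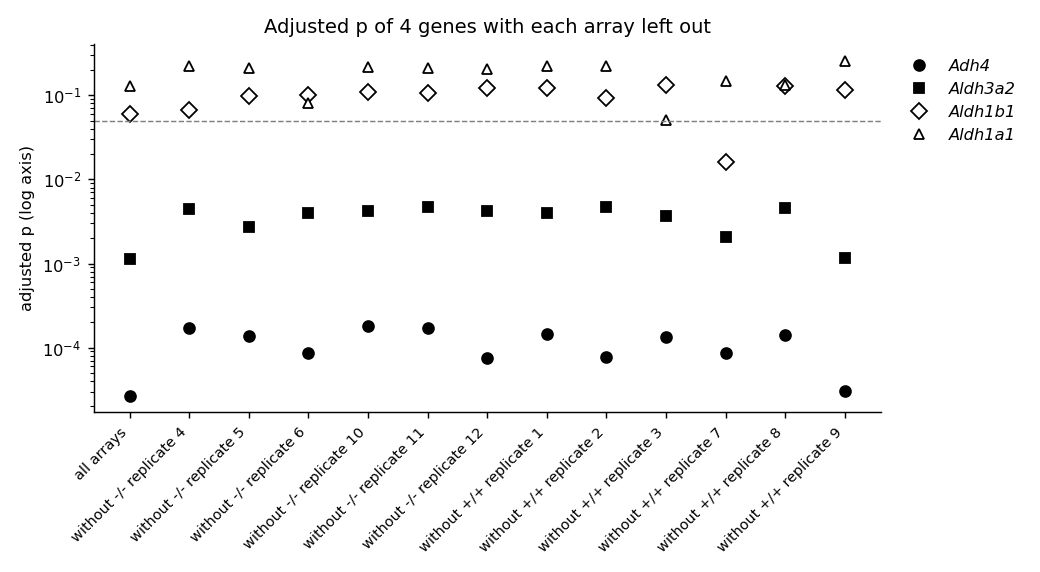
Adjusted p (log axis) of the genotype difference for Adh4, Aldh3a2, Aldh1b1 and Aldh1a1 with all 12 livers and with each left out in turn; the dashed line is the threshold of 0.05. Adh4 and Aldh3a2 stay below the line throughout, Aldh1b1 falls below it only without Ppara+/+ replicate 7, and Aldh1a1 comes closest, at 0.0515, without Ppara+/+ replicate 3.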

How the data were processed

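RNA of 12 whole livers was hybridised by the authors to Affymetrix MoGene 1.0 ST arrays and summarised with RMA, per the labels. The deposited values are log2 signals of 35556 probe sets and were used as deposited; the RMA version and the genome build of the array annotation are not stated in the sources used here. Probe sets naming 1 gene numbered 21789, several genes 1621 and no gene 12146. Each gene took its value from the brightest probe set that names it alone. Each probe set was fitted with limma 3.58.1 in R 4.3.3 (lmFit and eBayes, genotype and sex, 9 residual and 2.49 prior degrees of freedom), and p-values were adjusted by Benjamini-Hochberg over all probe sets. The calculation was tested on simulated data. The methods of the study selected genes by a logarithmic fold change beyond 1.3, whereas a figure legend of the study gives an absolute fold change of 1.3. Both readings were tried as alternatives, and which of them lay behind the gene lists of the study is not settled here.

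The members and lists were chosen with earlier results of these data known. All members, Ppara and up to 4 called genes per other list and direction were named; chromosome neighbours and further genes were named after their values were seen. Arrays of fetal liver were not analysed here. The alternatives were other covariates, scalings, filters, variance models, thresholds, an exact Mann-Whitney test, averaged probe sets per gene, each sex alone and each array left out in turn. Leaving out Ppara-/- replicates 6 and 10 together, and the marker sums without Ppara+/+ replicate 7, were added after the data had been seen.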

Additional observations from a re-analysis of the deposited data

Results flagged for a closer look

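A total of 3 values stood far from the other 5 livers of their genotype by Dixon's ratio, among 48 groups tested, where chance gives about 1 in 20, or 2.4. Adh5 was 11.48 in Ppara-/- replicate 6, and the nearest Ppara-/- liver was at 11.41. Aldh1b1 was 10.65 in the same liver, and the nearest was at 10.45. This liver also had the highest summed signal of pancreas acinar markers, 12.63 on the log2 scale, whose part in both values was not tested. Without Ppara-/- replicates 6 and 10 the log2 fold change was 0.25 for Aldh1b1 (adjusted p = 0.169, limma) and 0.00614 for Adh5 (adjusted p = 0.972, limma). Hacl1 was 11.50 in Ppara-/- replicate 11, and the nearest was at 11.64.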

How the results depend on the processing

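Adh4 and Aldh3a2 had log2 fold changes below 0 under each of 25 alternatives with both sexes, from -1.27 to -1.16 and from -0.34 to -0.29, and in each sex alone (Adh4, -1.28 in males and -1.15 in females). They stayed past the test except under the Mann-Whitney test and the log2 change beyond 1.3, and for Aldh3a2 also the change above 1.3-fold. With any 1 liver left out, 2 of the 10 genes were called lower. The exact Mann-Whitney test called 0 genes in any list, since its smallest adjusted p was 0.0691. With a change above 1.3-fold the counts were 1 member lower, 0 and 0 of the other family genes lower and higher, and 1 partner gene higher. With a log2 change beyond 1.3 they were 0 members lower, 0 and 0 of the other family genes, and 2 partner genes lower and 0 higher. Aldh1b1 was the 1 member called higher without a sex term, after quantile normalization, without probe sets below the 40th percentile, among probe sets of 1 gene, with a trend and robust fit, with array weights and without Ppara+/+ replicate 7 (range with 1 liver left out, 0 to 1), and its adjusted p ran from 0.0161 to 0.169 (limma). Other family genes called higher numbered 2 with the trend and robust fit, and those called lower 0 without Ppara-/- replicates 6 and 10 (each 1 to 1 with 1 liver left out). Partner genes called higher numbered 7 with array weights and 3 to 9 with 1 liver left out, and those called lower 6 to 7. The sign turned for Aldh2 after quantile normalization (-0.00894) and without Ppara+/+ replicate 9 (-0.011, within a range of -0.011 to 0.057 with 1 liver left out), and for Adh5 in males alone (-0.00194). Over all genes, 224 lower and 397 higher became 387 and 707 with array weights, 348 and 718 without Ppara+/+ replicate 7, 113 and 141 above 1.3-fold, and 12 and 5 beyond a log2 change of 1.3. The count of higher genes was also 664 without probe sets below the 40th percentile, 603 among probe sets of 1 gene, 608 with the trend and robust fit, 264 without Ppara-/- replicate 11, 259 without Ppara+/+ replicate 8 and 199 without Ppara-/- replicates 6 and 10. The cause was not tested. No analysis paired by litter was possible because the labels do not give the litter of each pup. Signals near or below the array medians, as for Aldh1a7, for Adh7 and for Adh4 in Ppara-/- livers, limit the size of a difference that can be read.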
